A study of Homo sapiens with 6 samples.

Results

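Interferon-stimulated genes and RNA sensors were followed in SW480 cells, an established human colorectal cancer line, after siRNA against ZEB1. ZEB1 is a zinc-finger transcription factor that represses epithelial genes. The genes came from a list of 47 symbols matched to the gene names of the count tables, and 42 of the 47 had a row among 32029 genes. The other 5 (IFI44L, SAMD9L, XAF1, CMPK2 and RSAD2) had no row in the tables used and were not analysed here. The control group, siNC, held 3 cultures with the genotype label WT, and the siZEB1 group held 3 cultures labelled as ZEB1 knockdown. Every culture received an siRNA, and RNA was taken 48 h after transfection according to the series design. The 3 samples of each group were stated to be biological replicates. The design compared siZEB1 with siNC in 1 cell line, without untransfected cells, and the siRNA sequences were not given in the sources used here. In bulk RNA of this kind, fewer cells expressing a gene and less RNA per cell cannot be told apart.

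Cells sense viral RNA through helicases of the RIG-I family. RIG-I, encoded by DDX58, and MDA5, encoded by IFIH1, signal through the mitochondrial adaptor MAVS and the kinase TBK1 to the transcription factor IRF3, which induces interferon genes. Secreted interferon binds receptors that carry the kinases JAK1 and TYK2, and STAT2, once phosphorylated, joins IRF9 in the complex ISGF3. ISGF3 binds the interferon-stimulated response element (ISRE) in promoters of interferon-stimulated genes, whose products degrade RNA, block translation, trap virions or modify proteins, while a second element, called GAS, serves the response to interferon-gamma. Many epithelial lines express part of this program without added interferon.

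Total counts ranged from 19261824 to 22357633 in siNC and from 19040636 to 19349668 in siZEB1, and 14996 genes passed the low-count filter. ZEB1 had 1247, 1276 and 908 reads in siNC and 136, 132 and 162 in siZEB1, a log2 fold change of -2.85 ± 0.11 (SE) with an adjusted p of 4.85e-12 (edgeR quasi-likelihood test, Benjamini-Hochberg over all genes tested, as for every adjusted p given here). The groups did not overlap. The epithelial keratin genes KRT8 and KRT18 had 63244 to 76451 and 25333 to 31826 reads per culture, so the defining keratins of an epithelial line were present. Of the other epithelial markers, EPCAM, VIL1 and KRT19 rose by 3.05, 2.34 and 1.62 on the log2 scale and CDX2 fell by 1.30. The 4 of 5 leukocyte markers with a row summed to 0.98 to 1.29 CPM (reads scaled to library size with TMM factors) in siNC and 1.24 to 1.41 CPM in siZEB1. Of 4 plasmacytoid dendritic cell markers, LILRA4 had no row, CLEC4C had at most 1 read and TCF4 had 3, 1 and 0 reads in siNC and 0, 1 and 1 in siZEB1, whereas IL3RA had 21, 25 and 30 reads in siNC and 36, 41 and 59 in siZEB1 (adjusted p = 0.00746, or 0.0531 without siZEB1 replicate 3). COL1A1 and PECAM1, the fibroblast and endothelial markers with a row, had adjusted p of 0.149 and 0.688. The part of these markers in the values below was not tested.

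Of the 42 genes with a row, 31 passed the filter. At an adjusted p under 0.05, 16 of the 31 were lower in siZEB1 (51.6%) and 2 were higher (6.45%), against 21.2% lower and 19.0% higher among all genes tested. The list was chosen with earlier results of these data known. These shares therefore describe the list, which was not tested as a set. The lower genes were IFI35, IFIT1, DTX3L, IFIT3, IFIT5, ISG15, IRF1, PARP14, LGALS3BP, IFI6, BST2, SP100, IFITM2, DDX58, OAS3 and TRIM25, and the higher genes were IRF7 and IFI27. The median log2 fold change of the 31 genes was -0.46, and that of all genes tested was -0.01. The fold change was below 0 for 26 genes and above 0 for 5. In 16 of the 31 genes every siZEB1 culture lay below every siNC culture, and in 2 every siZEB1 culture lay above, where the shares among all genes tested were 25.3% and 24.3%.

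A fold limit of 1.5 left fewer genes. With an adjusted p under 0.05, 10 genes were lower (32.3%) and 2 higher (6.45%), against 8.57% and 6.36% of all genes tested. With an unadjusted p under 0.05 the counts were again 10 (32.3%) and 2 (6.45%), against 9.35% and 7.21%. With an unadjusted p under 0.001 there were 6 lower (19.4%) and 1 higher (3.23%), against 6.70% and 4.52%. The share of higher genes was thus close to or below that of all genes tested at each limit.

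The same counts were also read culture by culture, which is a restatement and not separate support. The siNC cultures were set against their own mean, which holds their values close to it. The median log2 difference of the 31 genes from their siNC mean was -0.04, -0.0043 and 0.10 in the siNC cultures and -0.36, -0.44 and -0.36 in the siZEB1 cultures. The same median over all genes tested lay between -0.0065 and 0.0034 in each culture. In siNC, 20, 16 and 12 of the 31 genes were below their siNC mean, compared with 23, 26 and 24 in siZEB1.

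**Figure D1:**
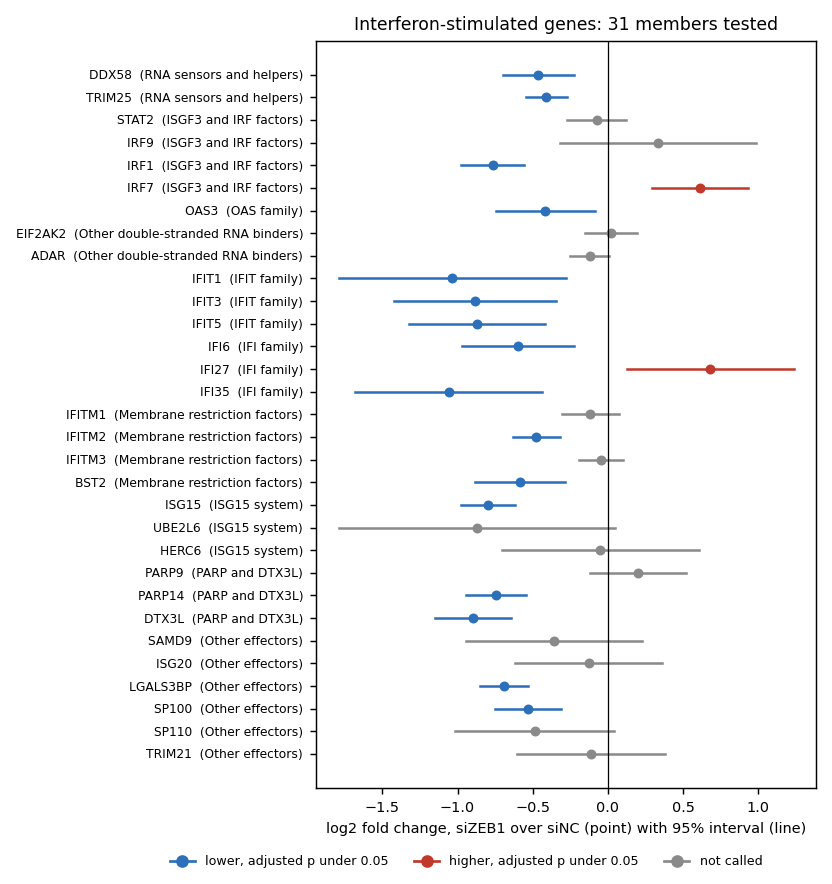
Log2 fold change of the 31 tested genes, siZEB1 over siNC with 3 cultures each, grouped by role. Points are edgeR estimates and lines their 95% intervals. Of the 31 genes, 16 were called lower, 2 higher (IRF7 and IFI27) and 13 were not called.

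Promoters of the genes on which the results turn are shown with the RefSeq sequence of build GRCh38.p14, as windows from 250 bases before to 50 bases after the start site, on the gene's own strand. In ISG15, IFIT1, LGALS3BP, DTX3L and IFI27 the capitals mark matches to the ISRE core GAAANNGAAA on either strand. In IRF1, whose window held no ISRE core, they mark the GAS core TTCNNNGAA. The windows are ISG15 at chr1:1013247-1013546 (plus strand), IFIT1 at chr10:89392373-89392672 (plus), LGALS3BP at chr17:78979874-78980173 (minus), DTX3L at chr3:122564088-122564387 (plus), IRF1 at chr5:132490724-132491023 (minus) and IFI27 at chr14:94110486-94110785 (plus, the more upstream of 2 RefSeq windows). The first 5 belong to genes that were lower in siZEB1 and the last to a gene that was higher, so that the elements can be set beside the direction of each gene.
ISG15: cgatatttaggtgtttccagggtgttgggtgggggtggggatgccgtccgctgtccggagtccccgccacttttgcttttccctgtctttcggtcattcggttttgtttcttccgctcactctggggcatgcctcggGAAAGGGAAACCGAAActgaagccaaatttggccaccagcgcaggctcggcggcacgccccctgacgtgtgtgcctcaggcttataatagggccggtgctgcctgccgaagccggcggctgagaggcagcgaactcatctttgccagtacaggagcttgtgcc
IFIT1: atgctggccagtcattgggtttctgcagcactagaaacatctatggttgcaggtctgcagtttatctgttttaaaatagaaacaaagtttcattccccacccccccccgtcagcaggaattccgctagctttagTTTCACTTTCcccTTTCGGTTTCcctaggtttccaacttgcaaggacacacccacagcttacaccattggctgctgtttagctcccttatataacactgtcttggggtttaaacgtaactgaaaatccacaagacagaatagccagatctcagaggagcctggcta
LGALS3BP: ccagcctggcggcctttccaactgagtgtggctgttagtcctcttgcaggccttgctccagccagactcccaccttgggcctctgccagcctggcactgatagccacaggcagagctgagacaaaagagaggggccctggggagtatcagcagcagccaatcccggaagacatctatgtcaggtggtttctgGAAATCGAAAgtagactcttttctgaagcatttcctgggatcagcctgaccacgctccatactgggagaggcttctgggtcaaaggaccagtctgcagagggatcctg
DTX3L: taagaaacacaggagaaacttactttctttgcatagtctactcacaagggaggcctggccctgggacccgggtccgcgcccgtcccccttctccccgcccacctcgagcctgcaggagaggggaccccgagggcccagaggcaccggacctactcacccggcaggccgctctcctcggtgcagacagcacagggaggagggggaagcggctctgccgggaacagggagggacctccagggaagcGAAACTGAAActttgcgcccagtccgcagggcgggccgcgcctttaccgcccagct
IRF1: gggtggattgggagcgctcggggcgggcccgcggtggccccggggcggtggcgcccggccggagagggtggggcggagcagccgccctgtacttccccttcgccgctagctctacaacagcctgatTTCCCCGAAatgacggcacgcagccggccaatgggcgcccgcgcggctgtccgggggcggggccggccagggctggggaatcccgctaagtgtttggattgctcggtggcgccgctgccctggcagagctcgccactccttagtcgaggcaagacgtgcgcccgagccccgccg
IFI27: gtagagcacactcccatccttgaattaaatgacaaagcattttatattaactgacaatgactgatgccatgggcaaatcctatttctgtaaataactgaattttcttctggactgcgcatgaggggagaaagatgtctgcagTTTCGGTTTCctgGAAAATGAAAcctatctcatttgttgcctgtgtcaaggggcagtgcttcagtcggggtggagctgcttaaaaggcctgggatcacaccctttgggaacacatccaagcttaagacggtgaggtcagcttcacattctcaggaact

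ISG15 carried 2 overlapping ISRE cores that began at positions -113 and -107 from the start site. IFIT1 carried 2 separate cores at positions -116 and -103, and LGALS3BP carried 1. IFI27 also carried 2, at positions -108 and -95, with a GAS core between them that shared bases with both. The single ISRE core of DTX3L, GAAACTGAAA, began at position -6 from its start site, at chr3:122564332-122564341. PARP9 is transcribed in the opposite direction. In its RefSeq window at chr3:122564251-122564550, the core at position -41 from the start site is the same 10 bases of the genome. Its other RefSeq window, at chr3:122564735-122565034, does not overlap the DTX3L window and held no ISRE core.

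Across the list, 39 genes matched 54 RefSeq windows, DDX58 under its RefSeq name RIGI. IFIT2, DHX58, OAS2, OASL, MX2, IRF7, USP18 and IFITM2 had no entry. The ISRE core was in 51.9% of these windows, compared with 3.57% of all 35116 windows, and it occurred in 24 genes. The list is made of interferon-stimulated genes, so this share is a property of the list and not a result of the counts. The GAS core was in 20.4% against 7.66%. Of the E-boxes that ZEB1 is known to bind, CAGGTG was in 20.4% of the windows against 20.6% of all windows, and CAGGTA was in 0% against 9.83%. CAGGTG occurred in 10 genes. Among them were LGALS3BP, OAS3, PARP14 and SP100, which were lower, and ISG20, PARP9 and STAT2, which were tested and not called. In the LGALS3BP window printed above it lies at position -71 and is not in capitals. Both strands were searched, and a match was counted whether or not it overlapped another motif. A match describes letters in a window and is not a bound site.

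The ISRE core was present in genes of every outcome. It was found in 10 of the 15 lower genes with a window, in IFI27, in 7 of 13 genes that were tested and not called, and in 4 of 5 genes below the filter. TRIM25, IRF1, IFI35, SP100 and DDX58 were lower and had no ISRE core in their windows, whereas EIF2AK2, IFITM1, IFITM3, PARP9, SAMD9, ISG20 and TRIM21 held one and were not called. The search took only the spacing of GAAANNGAAA, so GAAA pairs standing closer together on either strand were not counted. The windows of DDX58, TRIM25 and IFI35 hold such a closer pair, as do those of SP110, not called, and OAS1, below the filter. Whether counting such pairs would change the split by outcome was not tested. Outside the list, 364 tested genes had a window with the ISRE core, of which 23.1% were lower and 23.4% were higher, and their median log2 fold change was -0.01. Among all 10401 tested genes outside the list with a window, 22.9% were lower and 20.6% higher.

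**Figure D2:**
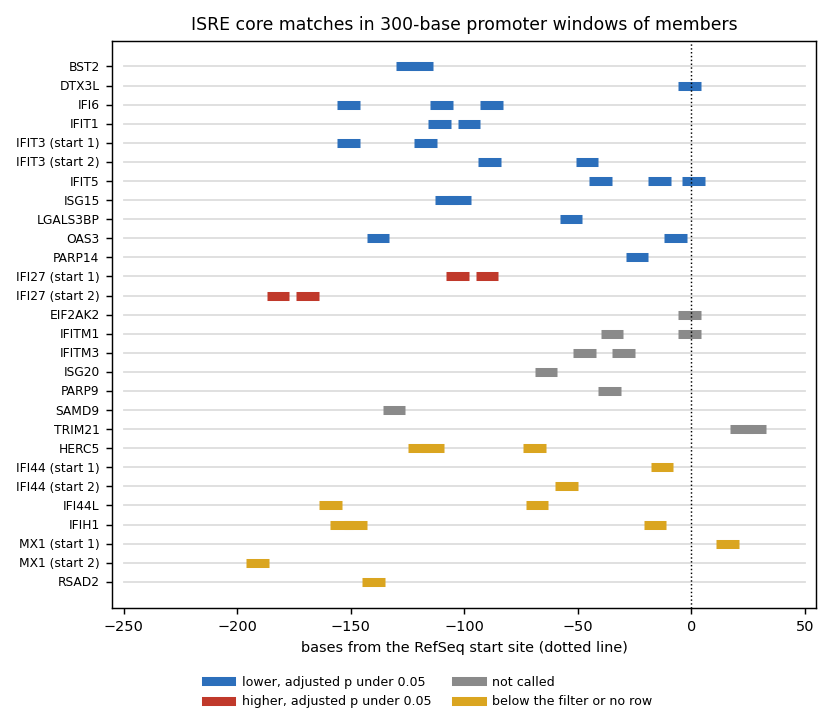
Position of ISRE core matches in the 300-base promoter windows, in bases from the RefSeq start site (dotted line), with 1 row per window that holds a match and the colour giving the call in siZEB1 against siNC. Matches occur in genes that were lower, higher, not called and below the filter, and in IFI44L and RSAD2, which had no row in the tables used and so no call.

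Among the RNA sensors, DDX58, which encodes RIG-I, was lower. Its reads were 321, 352 and 268 in siNC and 216, 177 and 227 in siZEB1, without overlap in raw reads or in CPM. The log2 fold change was -0.46 ± 0.11 (SE, n = 3 per group) with an edgeR adjusted p of 0.00292. TRIM25, the ubiquitin ligase that activates RIG-I, also fell, by 0.41 on the log2 scale (adjusted p = 7.44e-05). IFIH1, which encodes MDA5, had 4, 6 and 5 reads in siNC and 8, 4 and 5 in siZEB1, and DHX58, which encodes LGP2, had 1, 9 and 2 against 8, 7 and 4. The ranges of both genes overlapped between the groups, and without the low-count filter their edgeR adjusted p was 0.795 and 0.513. Of the 3 helicase genes, DDX58 alone had more than 10 reads in any culture.

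The OAS enzymes make 2′-5′ oligoadenylates when they bind double-stranded RNA, and these signal for RNA decay. OAS3 had 121, 153 and 106 reads in siNC and 73, 83 and 102 in siZEB1, with no overlap but with the highest siZEB1 culture next to the lowest siNC culture. Its log2 fold change was -0.42 ± 0.16 (SE, n = 3 per group), and the edgeR adjusted p of 0.0413 became 0.189 without siNC replicate 2, 0.175 without siZEB1 replicate 1, 0.108 without siZEB1 replicate 2 and 0.0851 by DESeq2. OAS1 had 15, 10 and 4 reads against 3, 9 and 6, and OAS2 had 4, 5 and 5 against 10, 3 and 5. OASL, a relative without synthetase activity, had 1 or 2 reads in each culture. Reads of these 3 genes overlapped between the groups.

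Of the other binders of double-stranded RNA, EIF2AK2 encodes PKR, the kinase that stops translation. It had 2548, 2294 and 1867 reads in siNC and 2029, 1919 and 2237 in siZEB1, which overlapped. The log2 fold change was 0.02 ± 0.08 (95% interval -0.15 to 0.19, n = 3 per group, edgeR adjusted p = 0.855). ADAR, the adenosine deaminase that edits double-stranded RNA, had 5051, 5442 and 4140 reads against 4009, 3951 and 4246, which also overlapped. Its log2 fold change of -0.12 ± 0.06 had a 95% interval of -0.25 to 0.01 and an edgeR adjusted p of 0.134, which was 0.0203 without siNC replicate 3.

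STAT2 and IRF9, the listed parts of ISGF3, were not called, while IRF1 and IRF7 were called in opposite directions. STAT2 had 466, 585 and 534 reads in siNC and 458, 467 and 446 in siZEB1, with a log2 fold change of -0.07 ± 0.09 (95% interval -0.27 to 0.12, n = 3 per group, edgeR adjusted p = 0.550). IRF9 had 26, 19 and 17 reads against 30, 17 and 24, with a log2 fold change of 0.33 ± 0.31 (edgeR adjusted p = 0.422). Both genes overlapped between the groups, and 48.4% of the IRF9 exon bases in GENCODE 29 also belong to AL136295.5, which runs in the same direction, and its low count is uncertain.

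IRF1, an interferon-induced transcription factor that activates many of the same promoters, was lower. It had 447, 498 and 464 reads in siNC and 279, 245 and 230 in siZEB1, without overlap. The log2 fold change was -0.77 ± 0.10 (SE, n = 3 per group) with an edgeR adjusted p of 9.81e-06. IRF7, the factor that amplifies interferon-alpha gene induction, went in the opposite direction, from 87, 90 and 89 reads in siNC to 138, 130 and 103 in siZEB1. Every siZEB1 culture was above every siNC culture, and the log2 fold change was 0.61 ± 0.15 (SE, n = 3 per group, edgeR adjusted p = 0.00361). In GENCODE 29, genes on the opposite strand share 22.0% of the IRF1 exon bases, and the strand setting of the counting was not given in the sources used here.

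The IFIT genes encode antiviral proteins, and IFIT1 binds viral RNA lacking host cap methylation and holds it back from translation. All 3 that passed the filter were lower, with a median log2 fold change of -0.88. IFIT5 had 51, 55 and 49 reads in siNC and 26, 26 and 25 in siZEB1, 2 narrow and separate ranges (log2 fold change -0.87 ± 0.21 SE, n = 3 per group, edgeR adjusted p = 0.00368). IFIT3 had 45, 47 and 46 reads against 29, 16 and 23, a log2 fold change of -0.88 ± 0.26 with an edgeR adjusted p of 0.0105, or 0.0561 without siZEB1 replicate 2. IFIT1 was the sparsest, with 17, 25 and 28 reads against 8, 10 and 13.

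The IFIT1 groups did not overlap, and the log2 fold change was -1.04 ± 0.36 (SE, n = 3 per group) with an edgeR adjusted p of 0.0287. The adjusted p was 0.0693 without siNC replicate 2, 0.124 without siNC replicate 3, 0.110 without siZEB1 replicate 1 and 0.0772 without siZEB1 replicate 2, and 0.0682 by DESeq2. IFIT2 was below the filter, with 9, 9 and 8 reads in siNC and 4, 1 and 4 in siZEB1. These reads did not overlap between the groups, and without the filter the adjusted p was 0.161.

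Of the IFI genes, IFI35, whose product binds other interferon-induced proteins, had 27, 37 and 37 reads in siNC and 16, 12 and 16 in siZEB1. The groups were separate, and its log2 fold change of -1.06 ± 0.29 (SE, n = 3 per group, edgeR adjusted p = 0.00823) was the most negative of the 31 genes. IFI6, a mitochondrial and endoplasmic reticulum protein that limits cell death and flavivirus replication, fell from 75, 96 and 90 reads to 48, 58 and 51. These ranges did not overlap either (log2 fold change -0.60 ± 0.17 SE, n = 3 per group, edgeR adjusted p = 0.0114).

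IFI27, a mitochondrial protein related to IFI6, was higher. It had 20, 39 and 38 reads in siNC and 42, 42 and 58 in siZEB1, and the siNC culture with 20 reads stood apart from the other 2, which lay close to the siZEB1 range. The log2 fold change was 0.68 ± 0.26 (SE, n = 3 per group) with an edgeR adjusted p of 0.0479. It was 0.42 with an adjusted p of 0.208 without siNC replicate 1, and the adjusted p was 0.0626 without siNC replicate 2, 0.0630 without siZEB1 replicate 1, 0.0526 without siZEB1 replicate 2, 0.180 without siZEB1 replicate 3, 0.0736 by DESeq2 and 0.0551 with scaling by total library size. IFI44 had 1 read in 1 siNC culture and 0 in the other 5 cultures.

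ISG15 is a ubiquitin-like protein that is attached to newly made proteins. It had 595, 616 and 594 reads in siNC and 298, 325 and 323 in siZEB1, 2 ranges far apart beside the spread within them. The log2 fold change was -0.80 ± 0.09 (SE, n = 3 per group), and its edgeR adjusted p of 1.17e-06 was the lowest among the 31 genes. Of the other listed genes grouped with ISG15, none had more than 29 reads in a culture. UBE2L6, the conjugating enzyme, had 26, 21 and 8 reads against 12, 9 and 6, with a log2 fold change of -0.87 ± 0.43 (edgeR adjusted p = 0.122, n = 3 per group, and 0.0270 without siNC replicate 3).

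HERC5, the main ISG15 ligase in human cells, had 0 reads in each siNC culture and 2, 1 and 4 in siZEB1. USP18, the protease that removes ISG15 and also restrains the interferon receptor, had 4, 15 and 9 reads against 9, 4 and 4. HERC6, a related gene, had 19, 20 and 29 reads against 23, 19 and 18 and a log2 fold change of -0.05 (edgeR adjusted p = 0.913, n = 3 per group). Without the filter the adjusted p of HERC5 was 0.0877, and USP18 and HERC6 overlapped between the groups.

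PARP9, PARP14 and DTX3L act in ADP-ribosylation, and the PARP9 protein works in a complex with the ubiquitin ligase DTX3L. DTX3L had 306, 313 and 234 reads in siNC and 141, 121 and 154 in siZEB1, without overlap (log2 fold change -0.90 ± 0.12 SE, n = 3 per group, edgeR adjusted p = 1.37e-05). PARP14 had 588, 673 and 471 reads against 289, 320 and 330, also without overlap (log2 fold change -0.74 ± 0.09, n = 3 per group, edgeR adjusted p = 8.68e-06). PARP9 had 110, 97 and 74 reads against 99, 98 and 96, which overlapped, with a log2 fold change of 0.20 and a 95% interval of -0.12 to 0.52 (edgeR adjusted p = 0.313).

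The DTX3L window printed above overlaps in part with a RefSeq window of PARP9, whose other window lies apart. Reads of the 2 genes were therefore set against each other in each culture, a comparison chosen after the values were seen. The ratio of DTX3L to PARP9 reads was 2.78, 3.23 and 3.16 in siNC and 1.42, 1.23 and 1.60 in siZEB1. The groups did not overlap, and the mean difference of the log2 ratio was -1.11. The exact two-sided permutation p was 0.1, the smallest that 3 against 3 cultures can give. Because DTX3L was already separate and the pair was picked afterwards, the ratio and its p restate the values above and are not separate support. In GENCODE 29, 3.7% of the DTX3L exon bases and 2.4% of the PARP9 exon bases overlap each other on opposite strands.

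**Figure D3:**
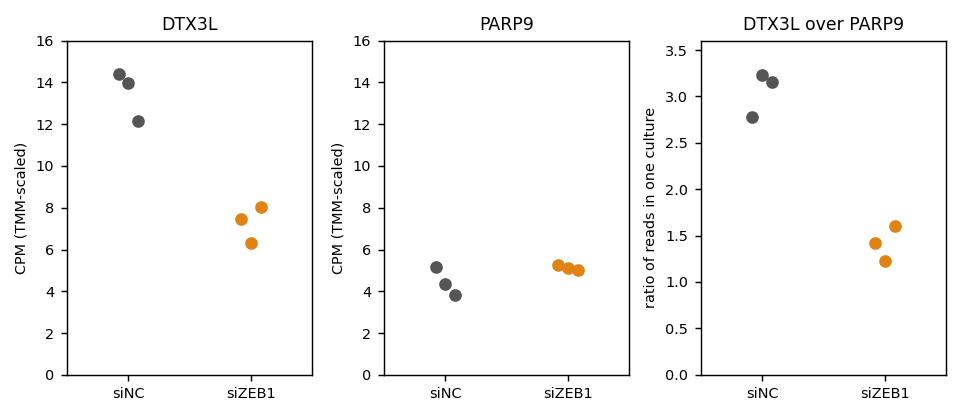
DTX3L and PARP9 in each of 3 siNC and 3 siZEB1 cultures, as CPM with TMM scaling in the left and middle panels and as the ratio of DTX3L to PARP9 reads in the right panel, each point being 1 culture and all axes starting at 0. DTX3L is lower in every siZEB1 culture, PARP9 overlaps, and the ratio lies between 2.78 and 3.23 in siNC and between 1.23 and 1.60 in siZEB1.

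The IFITM proteins restrict viral entry at membranes, and per kilobase of exon their genes had the highest levels of the listed genes tested. IFITM3 held 32.2% of all reads of the listed genes in siNC, with ADAR at 16.6% and IFITM2 at 12.8%. Per kilobase of exon, mean levels in siNC were 335 CPM for IFITM3, 116 CPM for IFITM2 and 47.7 CPM for IFITM1, compared with 30.6 CPM for ISG15 and 2.88 CPM for IRF1. IFITM3 had 9170, 9638 and 9525 reads in siNC and 8640, 8801 and 7610 in siZEB1, and IFITM1 had 1053, 1033 and 1137 against 953, 929 and 836. Both overlapped in CPM, and their log2 fold changes were -0.05 (95% interval -0.19 to 0.10, edgeR adjusted p = 0.623, n = 3 per group) and -0.12 (-0.31 to 0.07, edgeR adjusted p = 0.323).

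IFITM2 fell, from 3619, 3864 and 3760 reads to 2659, 2452 and 2257. The groups were separate, and the log2 fold change was -0.48 with an edgeR adjusted p of 6.51e-05 (n = 3 per group). The ratio of IFITM2 to IFITM3 reads, chosen after the values were seen, was 0.395, 0.401 and 0.395 in siNC and 0.308, 0.279 and 0.297 in siZEB1 (mean log2 difference -0.43, exact two-sided permutation p = 0.1, the smallest possible). This ratio and its p likewise restate the values above and are not separate support. IFITM genes are similar in sequence, and in GENCODE 29 IFITM1 and IFITM2 share 32.5% and 22.7% of their exon bases on the same strand. Of the IFITM3 exon bases, 21.3% overlap a gene on the opposite strand, and the strand setting was not given. The split of reads among the IFITM genes is therefore uncertain. BST2, or tetherin, which holds budding virions at the cell surface, had 167, 142 and 161 reads in siNC and 97, 87 and 102 in siZEB1. It fell by 0.58 on the log2 scale (edgeR adjusted p = 0.00342, n = 3 per group).

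The Mx GTPases, which trap viral nucleocapsids, were below the filter. MX1 had 5, 11 and 7 reads in siNC and 11, 11 and 9 in siZEB1, and MX2 had 14, 16 and 8 against 9, 4 and 3. Both overlapped. Without the filter, the adjusted p of MX2 was 0.149, and none of the 11 genes below the filter had an adjusted p under 0.05.

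Of the remaining effectors, LGALS3BP, a secreted galectin-binding glycoprotein, was lower, with 1488, 1622 and 1578 reads in siNC and 885, 933 and 831 in siZEB1. The groups did not overlap, and the log2 fold change was -0.69 ± 0.08 (SE, n = 3 per group, edgeR adjusted p = 1.82e-06). SP100, a structural part of nuclear PML bodies, had 316, 337 and 308 reads against 189, 228 and 189 and fell by 0.53 on the log2 scale (adjusted p = 0.000547). These 2 genes were the called ones among 6 tested in this group. SP110, the exonuclease ISG20, SAMD9 and the antibody receptor TRIM21 had adjusted p from 0.134 to 0.732 and log2 fold changes from -0.49 to -0.11. SP110 had an adjusted p of 0.0109 without siZEB1 replicate 1, and 20.9% of its exon bases overlap genes on the opposite strand.

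**Figure D4:**
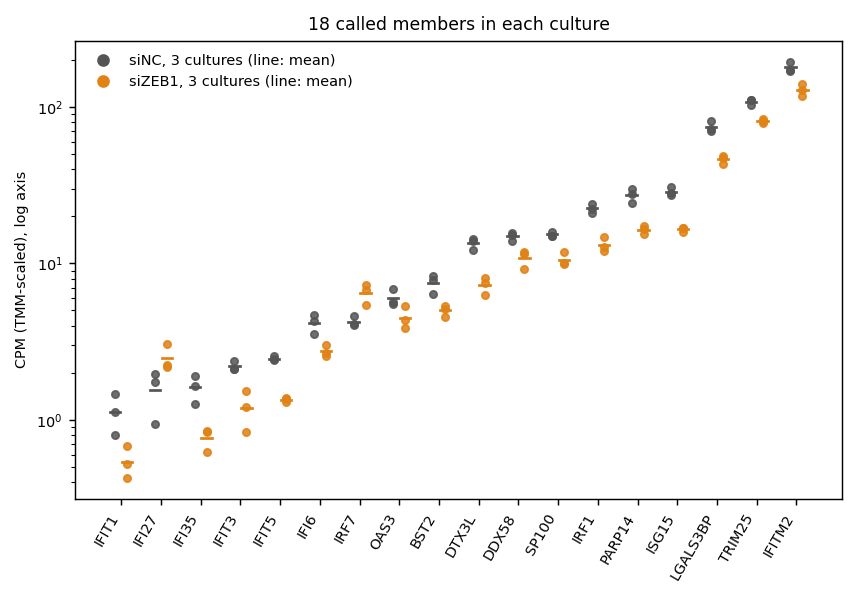
CPM with TMM scaling (log axis) of the 18 genes called at an adjusted p under 0.05, ordered by mean siNC level, with 1 point per culture and a line at the mean of 3 cultures. In 16 genes every siZEB1 culture lies below every siNC culture, and in IRF7 and IFI27 every siZEB1 culture lies above.

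The listed genes that fell spanned the range of abundance, from IFIT1 with a mean of 1.12 ± 0.33 CPM (SD, n = 3) in siNC and 0.541 ± 0.129 in siZEB1 to IFITM2 with 179 ± 13.7 and 129 ± 11.5. ISG15 lay between them at 28.8 ± 1.79 and 16.5 ± 0.638 CPM, and LGALS3BP at 74.8 ± 6.27 and 46.3 ± 2.61. IFITM3 and ADAR, the listed genes with the most reads, were not called.

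The upstream machinery was read from 4 further lists of 51 genes, of which 40 had a row and 32 were tested. At an adjusted p under 0.05, 9 of the 32 were lower, where 21.2% of all genes tested were lower. Another 5 of the 32 were higher, where 19.0% of all genes tested were higher. The median log2 fold change of the 32 was -0.13. The counts within single lists below stand against the same shares, rest on few genes and were not tested as sets. Of 13 interferon ligand genes 3 had a row, and IFNE, with 0 reads in siNC and 1, 1 and 3 in siZEB1, and IFNL1 and IFNL2, with at most 1 read, were below the filter. IFNB1 had no row in the tables used.

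Of 7 receptor and kinase genes tested, 2 were lower and 2 higher. IFNAR1, a chain of the type I interferon receptor, had 2312, 2356 and 1858 reads in siNC and 2197, 2136 and 2413 in siZEB1, a log2 fold change of 0.19 (edgeR adjusted p = 0.0399, n = 3 per group). IFNAR2, the other chain, had 4, 2 and 3 reads against 0, 0 and 1, with 44.2% of its exon bases shared with a same-strand gene in GENCODE 29, so its count is uncertain. IFNLR1, the specific chain of the interferon-lambda receptor, rose by 1.04 on the log2 scale, from 117, 90 and 84 reads to 187, 162 and 196 (edgeR adjusted p = 1.8e-05, n = 3 per group). The ranges of IFNLR1 did not overlap, while those of IFNAR1 overlapped in raw reads and not in CPM, and the adjusted p of IFNAR1 was 0.0841 and 0.113 without siNC replicates 2 and 3 and 0.0915 and 0.153 without siZEB1 replicates 1 and 3, and 0.0535 with scaling by total library size. The kinase genes TYK2 and JAK1 fell by 0.30 and 0.26 on the log2 scale (adjusted p = 0.00291 and 0.00908). The adjusted p of JAK1 was 0.0743 without siNC replicate 2 and 0.0626 without siZEB1 replicate 2.

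Of 11 genes of sensing, adaptors and kinases tested, 6 were lower and 1 was higher. MAVS had 3488, 3878 and 2932 reads in siNC and 2429, 2290 and 2487 in siZEB1, without overlap (log2 fold change -0.37 ± 0.07 SE, n = 3 per group, edgeR adjusted p = 0.000221). IKBKE, TICAM1, STING1, ZNFX1 and ZC3HAV1 fell by 0.22 to 0.50 on the log2 scale. STING1 lost its call without siNC replicate 3 or siZEB1 replicate 2 (adjusted p = 0.0526 and 0.0768), and ZC3HAV1 without siNC replicate 1 or 2 or siZEB1 replicate 1 or 2 (0.0529 to 0.0890). IRF3 rose by 0.21 (adjusted p = 0.0373), but its adjusted p was 0.186 and 0.0929 without siNC replicates 1 and 2 and 0.0903 and 0.148 without siZEB1 replicates 1 and 2. The kinase gene TBK1 had a log2 fold change of 0.13 with an adjusted p of 0.182. The DNA sensor gene CGAS had 7, 4 and 7 reads against 13, 9 and 25, below the filter but without overlap. Without the filter, CGAS had a log2 fold change of 1.49 with an edgeR adjusted p of 0.0105.

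Of 14 negative regulators, 1 was lower and 2 were higher. SOCS3, an inhibitor of JAK kinases, had 121, 137 and 127 reads in siNC and 63, 81 and 56 in siZEB1 (log2 fold change -0.81 ± 0.16 SE, n = 3 per group, edgeR adjusted p = 0.000599). The phosphatase genes PTPN2 and PTPN11 rose by 0.46 and 0.32 on the log2 scale (adjusted p = 1.39e-05 and 0.00276). The other 11 were not called.

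**Figure D5:**
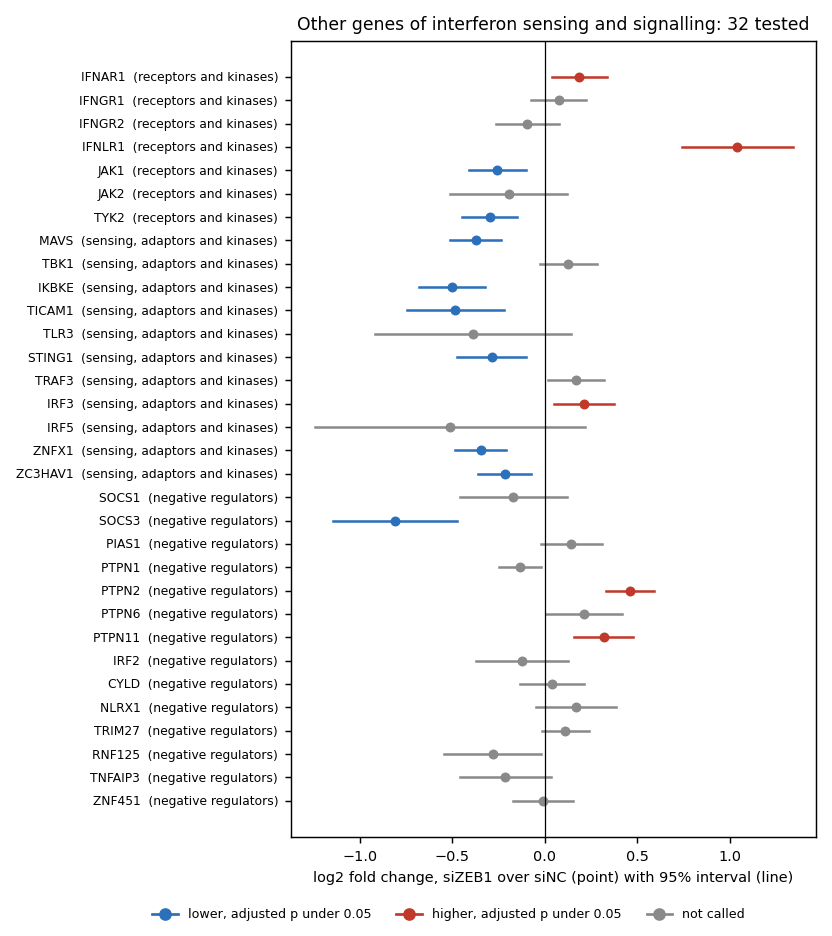
Log2 fold change, siZEB1 over siNC with 3 cultures each, of the 32 tested genes of interferon reception, sensing and their negative regulation, as points with 95% intervals. Of the 32, 9 were called lower and 5 higher. SOCS3 has the lowest value at -0.81 and IFNLR1 the highest at 1.04.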

How the data were processed

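RNA of 3 siNC and 3 siZEB1 SW480 cultures was sequenced by the authors, who deposited raw read counts per gene for each culture. The submitters' processing notes name Trimmomatic, HISAT2, SAMtools, featureCounts and build hg38. The gene annotation and strand setting are not given in the sources used here. Counts were tested as deposited with edgeR 4.0.16 in R 4.3.3 (filterByExpr by group, TMM scaling, glmQLFit and glmQLFTest, two-sided, Benjamini-Hochberg over 14996 genes). The standard error was taken as the log2 fold change divided by the root of the F statistic. On counts simulated with a biological coefficient of variation of 6.58%, 90% of 200 changed genes were recovered, with 1.64% false among calls. Recovery at the fold change and spread of each gene named here was not tested. DESeq2 1.42.0, other scalings and filters, fold limits, a replicate block and leaving out each culture were the alternatives. Total counts of 19040636 to 22357633 per culture limit what genes under about 10 reads can show. The genes, lists and roles were chosen with earlier results of these data known. Named in full were genes called with a fold above 1.5, the RNA sensors, STAT2 and IRF9, and, of the pathway, those called with such a fold and IFNB1, IFNAR1, IFNAR2, JAK1, TYK2, MAVS, TBK1 and IRF3. Gene overlap came from GENCODE 29, and promoters from RefSeq GRCh38.p14. Some genes of the pathway lists are not reported here.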

Additional observations from a re-analysis of the deposited data

How the results depend on the processing

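The count of lower genes kept within 1.5 times of 16 under DESeq2, each scaling, each filter and the replicate block (15 lower and 2 higher, median log2 fold change -0.47), and ranged from 13 to 17 when each culture was left out, with 1 to 2 higher and a median from -0.50 to -0.39. With a fold above 1.5, lower genes numbered 10 at an unadjusted p under 0.05, 10 at an adjusted p under 0.05 and 6 at an unadjusted p under 0.001. Higher genes numbered 1 under DESeq2, with total library size only, and at the 0.001 limit. The losses concerned IFI27, IFIT1, OAS3 (adjusted p = 0.0588 with the replicate block) and IFIT3, and ADAR, UBE2L6 and SP110 gained a call without 1 culture. Fold limits aside, the other 14 called genes kept an adjusted p under 0.05 in every alternative. Of the pathway genes, higher calls numbered 3 with the replicate block (IFNAR1 and IRF3 at adjusted p of 0.131 and 0.0889, with ZC3HAV1 lost among the lower at 0.0791), 4 with total library size only (10 lower), 6 without the filter (CGAS added) and 3 to 6 when 1 culture was left out, and lower calls 6 to 9. Genes near 0 changed sign only when 1 culture was left out: EIF2AK2 ranged from -0.043 to 0.11, HERC6 from -0.18 to 0.23, IFITM3 from -0.081 to 0.020, ISG20 from -0.31 to 0.017 and TRIM21 from -0.27 to 0.0042. Same-numbered cultures did not deviate together (r = -0.078, -0.12 and -0.28 across genes), so the numbers were not taken as pairs. IFIT1 and UBE2L6 could not be tested with at least 10 counts in every culture. The 11 genes below the filter are limited by depth.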
